A study of Mus musculus with 12 samples.

Results

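The results concern the effect of myocardial infarction (MI) on gene expression in mouse hearts injured during the wake period. The comparison sets the 3 arrays of the wake MI group against the 3 arrays of the wake sham group, which are 6 of the 12 arrays of the study. The members are all genes of the array. The gene lists and the rule for named genes were chosen with earlier results of these data known. The shares of each list called are therefore descriptive and not independent support. Of 12393 genes with a probe set of their own, 8111 reached the minimum level and were tested.

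All mice were of strain C57Bl/6, and each array measured total RNA from the heart of a separate mouse. The wake sham replicates are written SH1, SH2 and SH3 and the wake MI replicates MI1, MI2 and MI3. Wake MI mice had an infarction, and wake sham mice a sham operation, between zeitgeber time (ZT, hours in the light cycle) 13 and 15, and hearts were taken 8 h later at ZT 23. The sleep MI and sleep sham groups, also 3 mice each, were operated on between ZT 1 and 3 and sampled at ZT 11, and they entered here only through the shared estimate of the spread and a test of the difference between both MI effects. The labels describe the MI samples as infarcted myocardium but do not say which region of the sham hearts was taken, so region and injury cannot be told apart. According to the title of the series, the left anterior descending artery of the heart was ligated to cause the infarction. Sex and age of the mice are not given in the labels.

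An infarction cuts off the blood supply of a stretch of ventricular wall. Within hours, dying muscle cells and stressed survivors switch on transcription factors of the immediate early class, chaperones and cytokines, and neutrophils enter from the blood before macrophages and scar-forming fibroblasts take over. Healthy myocardium is by contrast dominated by transcripts of contraction, mitochondrial respiration and fatty acid use. Mice are active at night, so surgery in the wake period fell in the dark phase.

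Values are MAS5 signals, an array intensity per probe set with no fixed unit, and each gene is represented by its brightest probe set. Changes are differences of log2(signal + 16), MI minus sham, with the standard error (SE) of a limma fit, and the folds given are on the same scale, which understates the change of weak genes. A gene is called where limma's Benjamini-Hochberg adjusted p over the 8111 genes lies below 0.05. With 3 arrays a group, the smallest two-sided p of an exact permutation test is 0.1, and none was run. A fall in whole tissue may reflect fewer cells of a type or less RNA per cell, which cannot be told apart here.

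The arrays had close overall levels, with median signals from 32.7 to 34.7 over all 12 arrays. Correlations of log2 values were 0.974 to 0.985 within wake MI, 0.983 to 0.988 within wake sham and 0.948 to 0.965 between the groups. The control probe sets at the 3′ and 5′ ends of beta-actin gave a signal ratio, known to rise when RNA or its labelled copy is shorter, of 2.17 to 3.31 in wake MI and 1.77 to 1.81 in wake sham, with no overlap. With this ratio as a covariate 265 genes were called, 155 higher and 110 lower, and its part in the results was not tested otherwise. The median SE was 0.197 with the covariate and 0.145 without, while the median absolute change was 0.216 and 0.214. As the ratio did not overlap between the wake groups, this model cannot well separate it from the injury. A call lost with the covariate can reflect a less precise estimate, here and in all paragraphs below. Cardiac muscle transcripts were abundant, with summed signals of 27 sarcomere and Z-disc genes from 116933 to 148413 over the 6 arrays. Of 7 lung and 6 thymus and lymphoid markers, 0 reached the minimum level, and of 14 lymphocyte markers 1 did.

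Among the 8111 genes tested, 1496 (18.4%) were called, 633 (7.8%) higher and 863 (10.6%) lower in wake MI. These shares are the background for all list counts below. The 3 MI values and the 3 sham values did not overlap for 2855 genes (35.2%), among them 1457 of the 1496 called. Several rules for naming genes also required it, so a lack of overlap adds little to a call. Rises were fewer but larger than falls. Of the genes called higher, 192 rose at least 2-fold and 39 at least 4-fold, whereas 42 and 3 of those called lower fell as far. The median called rise was 0.74 (1.67-fold) and the median called fall was -0.55, a decrease of 31.9% on the scale of signal + 16. The count of called genes depended on single arrays: without SH3 it was 838 (424 higher, 414 lower), without SH1 it was 873 (432 higher, 441 lower), and without MI2 the number lower was 561. The numbers higher and lower were 587 and 789 without MI1, and 472 and 561 without MI2. They were 563 and 689 without MI3, and 548 and 661 without SH2. List counts with an array left out, or with the beta-actin ratio, stand against the numbers of the same setting.

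**Figure D1:**
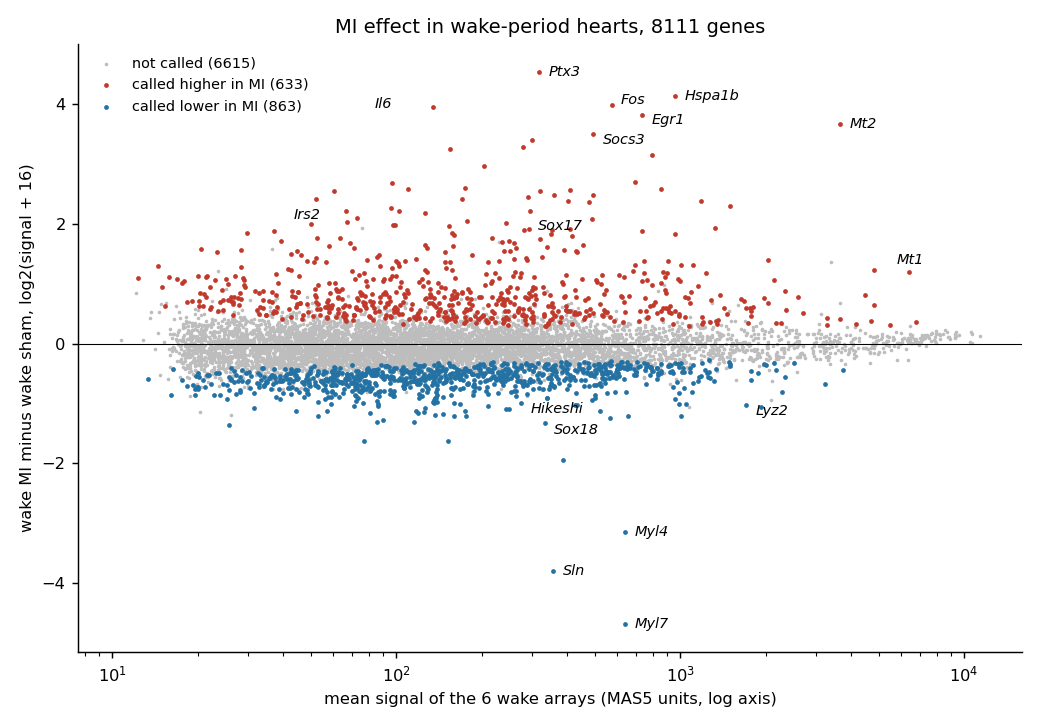
Change in wake MI (vertical axis, difference of log2(signal + 16), MI minus sham) against the mean signal of the 6 wake arrays (horizontal log axis) for 8111 genes, 1 point each. Red points are the 633 genes called higher and blue points the 863 called lower. Red points reach above 4, while nearly all blue points lie between 0 and -2, with the atrial genes Myl7, Sln and Myl4 below.

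These 5 promoters are shown because they belong to 3 small families with some of the largest rises, the metallothioneins, the inducible Hsp70 pair and Il6, and because short sequences known from textbook regulation of these families can be looked up in them. Each is the 250 bases upstream of a transcript start on the gene's strand, as given by RefSeq, build GRCm38.p6. For Mt1 the annotated gene begins further upstream than this start, so most of its window lies within the gene's span. Capitals mark the searched letters on either strand: the core of a metal response element (TGCACNC or TGCGCNC) in Mt2 and Mt1, a pair of inverted heat shock units (GAANNTTC or TTCNNGAA) in Hspa1b and Hspa1a, and an AP-1 site (TGANTCA) in Il6. The windows lie at chr8:94172368-94172617 on the plus strand (Mt2), chr8:94178839-94179088 plus (Mt1), chr17:34959239-34959488 minus (Hspa1b), chr17:34972157-34972406 minus (Hspa1a) and chr5:30012864-30013113 plus (Il6).
Mt2: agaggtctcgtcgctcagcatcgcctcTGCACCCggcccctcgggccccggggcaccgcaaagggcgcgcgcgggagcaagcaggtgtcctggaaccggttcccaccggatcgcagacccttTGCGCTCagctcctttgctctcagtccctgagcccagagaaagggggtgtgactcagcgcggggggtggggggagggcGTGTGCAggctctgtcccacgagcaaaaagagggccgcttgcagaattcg
Mt1: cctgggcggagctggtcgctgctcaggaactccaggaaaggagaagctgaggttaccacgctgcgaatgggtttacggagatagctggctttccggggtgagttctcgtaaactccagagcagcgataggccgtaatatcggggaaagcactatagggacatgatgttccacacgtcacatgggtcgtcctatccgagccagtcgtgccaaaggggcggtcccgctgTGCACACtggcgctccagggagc
Hspa1b: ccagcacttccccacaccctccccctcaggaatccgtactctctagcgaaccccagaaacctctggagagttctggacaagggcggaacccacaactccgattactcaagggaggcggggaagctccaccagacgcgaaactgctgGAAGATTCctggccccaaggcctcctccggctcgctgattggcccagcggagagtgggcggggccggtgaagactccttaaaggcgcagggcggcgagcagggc
Hspa1a: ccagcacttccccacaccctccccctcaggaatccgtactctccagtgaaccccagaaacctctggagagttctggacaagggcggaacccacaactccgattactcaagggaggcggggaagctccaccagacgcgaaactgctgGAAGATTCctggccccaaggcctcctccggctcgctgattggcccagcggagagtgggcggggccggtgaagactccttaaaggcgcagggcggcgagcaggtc
Il6: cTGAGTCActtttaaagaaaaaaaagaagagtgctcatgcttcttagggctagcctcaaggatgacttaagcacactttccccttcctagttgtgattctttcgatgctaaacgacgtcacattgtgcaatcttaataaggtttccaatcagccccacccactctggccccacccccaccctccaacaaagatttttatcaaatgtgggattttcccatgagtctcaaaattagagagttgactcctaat
The Mt2 window held 3 metal response cores and the Mt1 window 1, and these windows lie differently to the gene and were not compared. The Hspa1a and Hspa1b windows each held 1 heat shock pair and differed at 3 of 250 positions. Of all 32851 promoters in the table, 21.4% held a metal response core, 12.8% a heat shock pair and 6.75% an AP-1 site. Promoters could be matched for 6592 of the 8111 genes tested. The heat shock pair was present in 10.9% of the promoters of genes called higher, 12.0% of those called lower and 10.2% of those of all genes tested, and in 9 of 25 promoters (36.0%) of the heat shock list. An AP-1 site was present in 5.78%, 3.12% and 4.61% of promoters in the same order, and a metal response core in 28.4%, 29.3% and 29.9%. A match is a string of letters and says nothing of whether a factor was bound.

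The metallothioneins, which bind zinc and copper and are induced by metals, glucocorticoids and interleukin 6, were widely separated between the groups. Mt2 had signals of 441, 814 and 386 in wake sham and 7345, 6765 and 6265 in wake MI. Every MI value was several times the highest sham value. The log2 change of Mt2 was 3.67 ± 0.32 (12.7-fold, adjusted p = 2e-05). Mt1 had 3723, 4808 and 3176 in sham and 10169, 8387 and 8247 in MI, again without overlap, a change of 1.21 ± 0.15 (2.31-fold, adjusted p = 0.000248). Both stayed called with the beta-actin ratio in the model. Of 5 tested genes of the metallothionein and zinc list 4 were called higher. The others were the zinc transporters Slc30a1 (0.62 ± 0.20, adjusted p = 0.0429) and Slc39a14 (0.74 ± 0.23, adjusted p = 0.0385). Both lost their calls without any 1 of SH1, SH2 and SH3 or MI2, which left 2 called, and their highest adjusted p with 1 array left out were 0.154 for Slc30a1 (without MI3) and 0.144 for Slc39a14 (without MI2). Mtf1, the metal-sensing transcription factor, was not called by its brightest probe set (-0.34 ± 0.22, adjusted p = 0.304), while the other of its 2 probe sets was called higher and the mean of both was above 0.

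Immediate early and stress transcription factors rose almost as a group. Of 22 tested, 19 were called higher and 0 lower, against 7.8% and 10.6% of all genes, and the median of the list was 1.58 against -0.06 for all genes tested. Fos, the AP-1 subunit, had 39.2, 46.5 and 55.1 in sham and 536, 964 and 1799 in MI. Egr1, a zinc finger factor of the same class, had 77.3, 44.3 and 86.1 in sham and 555, 1074 and 2557 in MI. For both, MI3 was the highest array and the groups did not overlap. Fos changed by 3.99 ± 0.40 (15.9-fold, adjusted p = 5e-05) and Egr1 by 3.81 ± 0.61 (14.1-fold, adjusted p = 0.00124). Atf3, a stress-induced repressor, rose 9.73-fold (adjusted p = 2e-05), and Btg2, an antiproliferative gene, rose 5.94-fold with a narrow spread, from 104 to 108 in sham and 700 to 720 in MI. Maff, a small Maf factor, rose 5.34-fold and Zfp36, which destabilises cytokine mRNA, 5.63-fold. With the beta-actin ratio in the model 10 of the 22 were called higher. Fos, Atf3, Btg2, Maff and Zfp36 were among the genes called in that model, while Egr1 was not (adjusted p = 0.061).

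The heat shock list was mixed. Of 22 tested genes, 8 were called higher and 2 lower, with a median of 0.27. Hspa1b, one of the pair of inducible Hsp70 genes, had 59.4, 38.2 and 115 in sham and 451, 3135 and 1981 in MI, and MI1 was well below the other MI arrays. Hspa1a had 33.3, 31.9 and 35.4 in sham and 244, 789 and 666 in MI, with the same array lowest. The changes were 4.14 ± 0.51 for Hspa1b (17.7-fold, adjusted p = 0.00024) and 3.40 ± 0.33 for Hspa1a (10.5-fold, adjusted p = 4.4e-05). These genes are near-identical copies, so their probe sets may not separate them. Hspb1, a small heat shock protein of muscle, rose 1.76-fold (adjusted p = 0.000256), from 2891 to 3512 in sham and 5586 to 5825 in MI. Hspa5, the chaperone of the endoplasmic reticulum, rose 1.52-fold (adjusted p = 0.0109), and 1 of its 2 probe sets was called. Hspa4l, a testis-enriched member of the Hsp110 branch, fell 1.53-fold (adjusted p = 0.0116). The number called higher was 5 without SH1, and it was 3 with the beta-actin ratio in the model, where Hspa1a, Hspa1b and Hspb1 were called. The number called lower was 1 without MI2 and also 1 without SH3.

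**Figure D2:**
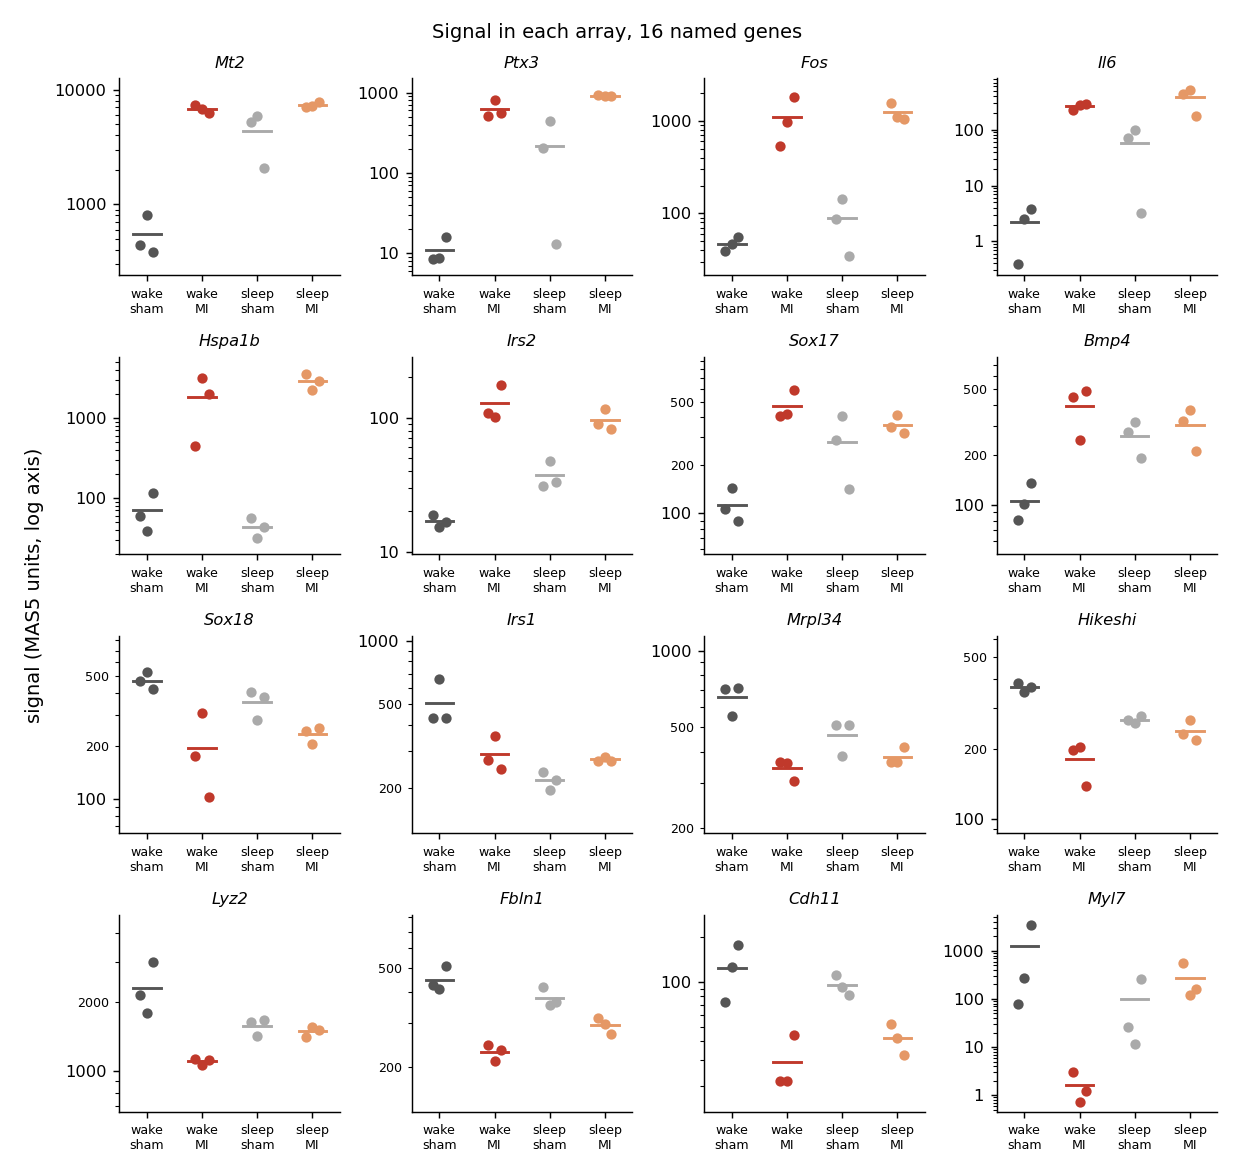
Signal of 16 genes in each of the 12 arrays (vertical log axes, MAS5 units), with 3 points and their mean as a bar for wake sham, wake MI, sleep sham and sleep MI. The wake groups do not overlap in any of the 16 panels, and several of the naming rules required this. For Mt2, Ptx3 and Il6 the sleep sham arrays lie above the wake sham arrays except for sleep sham replicate 3 in Ptx3 and Il6.

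Cytokine signalling and innate immune genes rose next. Il6, the cytokine that drives the acute phase response, was at 0.395, 2.53 and 3.75 in sham, below the minimum level, and at 227, 283 and 293 in MI. The groups were far apart and the change was 3.96 ± 0.51 (15.5-fold, adjusted p = 0.000303). Ptx3, a secreted pattern recognition protein of the pentraxin family, had 8.54, 8.76 and 16 in sham, also below the minimum level. Its MI values were 512, 811 and 554, the largest rise among the genes called on this scale (4.55 ± 0.65, 23.4-fold, adjusted p = 0.000595). Il6 and Ptx3 passed the level filter only through arrays other than wake sham. The size and rank of such rises depend on the added constant. Socs3, the feedback inhibitor of interleukin 6 family receptors, had 42.0, 46.0 and 86.3 in sham and 497, 584 and 1708 in MI (11.3-fold, adjusted p = 0.000836). Among 19 tested cytokines and chemokines 10 were called higher and 1 lower. The neutrophil attractants Cxcl1 and Cxcl2 rose 7.83-fold and 5.32-fold, the eosinophil attractant Ccl11 rose 2.43-fold, and Cxcl16, a membrane-bound chemokine, fell 1.72-fold. The number higher was 6 without MI2 and also 6 without SH1, and the number lower was 2 without sleep MI replicate 3. Il4ra, the receptor chain shared by interleukins 4 and 13, rose 4.53-fold from 33.4 to 39.2 in sham to 186 to 247 in MI (adjusted p = 7e-05). In the Toll-like receptor and NF-kB list 10 of 24 were called higher and 0 lower, including the NF-kB inhibitor Nfkbia (2.64-fold), the ubiquitin ligase Birc3 (2.80-fold), the NF-kB subunit Rel (2.38-fold) and Bcl3 (3.03-fold). With the beta-actin ratio in the model 2 cytokine genes and 1 NF-kB gene were called higher, and Cxcl16 stayed called lower.

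Of 10 tested neutrophil markers 8 were called higher and 0 lower, with a median of 1.66. The summed signal of all 13 neutrophil markers on the array was 304 to 824 in sham and 1438 to 3428 in MI. S100a8, a subunit of calprotectin, had 48.1, 221 and 103 in sham and 415, 490 and 412 in MI (3.73-fold, adjusted p = 0.00523). Il1r2, the decoy receptor for interleukin 1, rose 3.99-fold (adjusted p = 0.00197). Lcn2, lipocalin 2, which also belongs to the glucocorticoid list, had 121, 223 and 98.2 in sham and 1545, 1852 and 333 in MI (6.49-fold, adjusted p = 0.00975). Its MI3 value lay close to the sham range, though the groups did not overlap. Without MI2 the number called was 5, and with the beta-actin ratio in the model it was 1. Platelet markers gave 3 of 7 called higher, and 1 of 7 without MI1 or without SH1. The summed signal of all 9 platelet markers on the array was 327 to 595 in sham and 835 to 931 in MI.

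Resident macrophage markers did not rise. Of 15 tested 0 were called higher and 2 lower, with a median of -0.29 (-0.27 to -0.26 under the other scalings). Adgre1, which encodes F4/80, had 141, 132 and 206 in sham and 72.3, 73.9 and 96.0 in MI, without overlap (-0.84 ± 0.18, adjusted p = 0.00575). Lyz2, the lysozyme of macrophages and neutrophils, which was not on the list, had 2139, 1781 and 2997 in sham and 1127, 1056 and 1113 in MI, a fall in every array (-1.03 ± 0.15, adjusted p = 0.00059). The number of macrophage markers called lower was 7 without SH2, 4 without MI3, and 1 without any 1 of SH1, SH3, MI1 and MI2. It was 0 with the beta-actin ratio in the model.

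Genes known to respond to glucocorticoids were called higher in 15 of 20 cases and lower in 0, with a median of 1.14. Cdkn1a, the cell cycle inhibitor p21, had 338, 896 and 368 in sham and 2752, 2458 and 2176 in MI (4.95-fold, adjusted p = 0.00116). SH2 was the highest sham array for Cdkn1a, as for Mt2 and Lcn2. Map3k6 rose 3.51-fold (adjusted p = 0.000217), Sgk1, a kinase that controls ion transport, 2.50-fold (adjusted p = 0.00061) and Pdk4, which shuts pyruvate out of the citrate cycle, 2.35-fold (adjusted p = 0.000675). Pdk4 had 2405, 3618 and 2632 in sham and 7739, 7233 and 5329 in MI, all MI values above all sham values. With the beta-actin ratio in the model 5 of the 20 were called, among them Map3k6, Sgk1 and Pdk4 but not Cdkn1a (adjusted p = 0.055).

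Of 17 tested genes of wound matrix and pericellular proteolysis 14 were called higher and 0 lower, with a median of 1.39. Sphk1, the kinase that makes sphingosine 1-phosphate, had 9.91, 17.5 and 22.1 in sham and 268, 304 and 304 in MI (9.58-fold, adjusted p = 2.3e-05). Its mean sham signal lay below the minimum level, so the size of its rise depends on the added constant. Ccn1 and Ccn2, matricellular proteins, rose 8.94-fold and 5.22-fold, and MI3 was the highest array for both (2670 and 3048). Adamts1, a matrix protease, had 142, 129 and 154 in sham and 585, 895 and 965 in MI (5.16-fold, adjusted p = 2e-05). Plaur, the urokinase receptor, rose 3.21-fold from a tight sham range of 23.9 to 24.8 (adjusted p = 2e-05), and Hbegf, a ligand of the epidermal growth factor receptor, rose 5.21-fold. Akap12, a scaffold of protein kinase A, was not on the list but was among the largest rises of abundant genes (6.02-fold, adjusted p = 3.2e-05). Without MI2 the number called was 9, as it was with the beta-actin ratio in the model, where Sphk1, Ccn1, Ccn2, Adamts1, Plaur and Hbegf were all called.

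Endothelial genes moved in both directions. Of 31 tested 8 were called higher and 4 lower, with a median of 0.17, while the summed signal of the list was 20609 to 20965 in sham and 23006 to 25479 in MI. Sox17, a transcription factor of arterial endothelium, had 107, 145 and 89.3 in sham and 407, 419 and 591 in MI (1.91 ± 0.28, 3.77-fold, adjusted p = 0.00064). Its relative Sox18 went the other way, with 467, 529 and 420 in sham and 175, 307 and 102 in MI (-1.33 ± 0.26, 2.51-fold lower, adjusted p = 0.00439). Neither gene overlapped between the groups. Rasip1, needed for vessel tubes, rose 2.18-fold (adjusted p = 8.7e-05) and Robo4, a guidance receptor of endothelium, 1.71-fold (adjusted p = 0.00118). Aplnr, the apelin receptor, fell 3.84-fold, from 407 to 754 in sham to 69.8 to 344 in MI (adjusted p = 0.0153), and its call ended without SH1 (adjusted p = 0.0621) and without SH3 or MI1 or MI2. The number called lower was 2 without MI1, 1 without MI2, 8 without MI3, 2 without SH1 and 1 without SH3. With the beta-actin ratio in the model 3 were called higher, including Sox17, Rasip1 and Robo4, and 1 lower, and Sox18 was not called (adjusted p = 0.16).

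Fibroblast and collagen markers tended lower, with 2 of 26 called higher, 7 called lower and a median of -0.29 (-0.32 to -0.26 under the other scalings). Cdh11, a cadherin of mesenchymal cells, had 73.5, 125 and 177 in sham and 21.4, 21.5 and 44.0 in MI (3.07-fold lower, adjusted p = 0.00106). Fbln1, a matrix fibulin, had 426, 410 and 510 in sham and 245, 211 and 234 in MI (1.88-fold lower, adjusted p = 0.000237), and both of its probe sets fell. Col1a1, the main chain of type I collagen, had 119, 75.3 and 128 in sham and 36.0, 48.0 and 51.2 in MI (2-fold lower, adjusted p = 0.00684). In none of the 3 genes did the groups overlap. Against this, Col4a1, a basement membrane collagen that endothelial cells also make, rose 2.10-fold (adjusted p = 0.000265), from 1329 to 1442 in sham and 2681 to 3363 in MI. Without SH3 the list gave 1 called higher and 3 lower with a median of -0.13, and with the beta-actin ratio 1 higher and 2 lower, Cdh11 and Fbln1 being those called lower. Hpgd, which degrades prostaglandins, and the serine protease Htra3 were among the 12 largest falls (2.41-fold and 2.36-fold lower, adjusted p = 0.00025 and 0.0114), as were the fatty acid desaturase Scd2 (2.49-fold, adjusted p = 0.00262) and the adaptor Sh3d19 (2.47-fold, adjusted p = 0.000384).

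**Figure D3:**
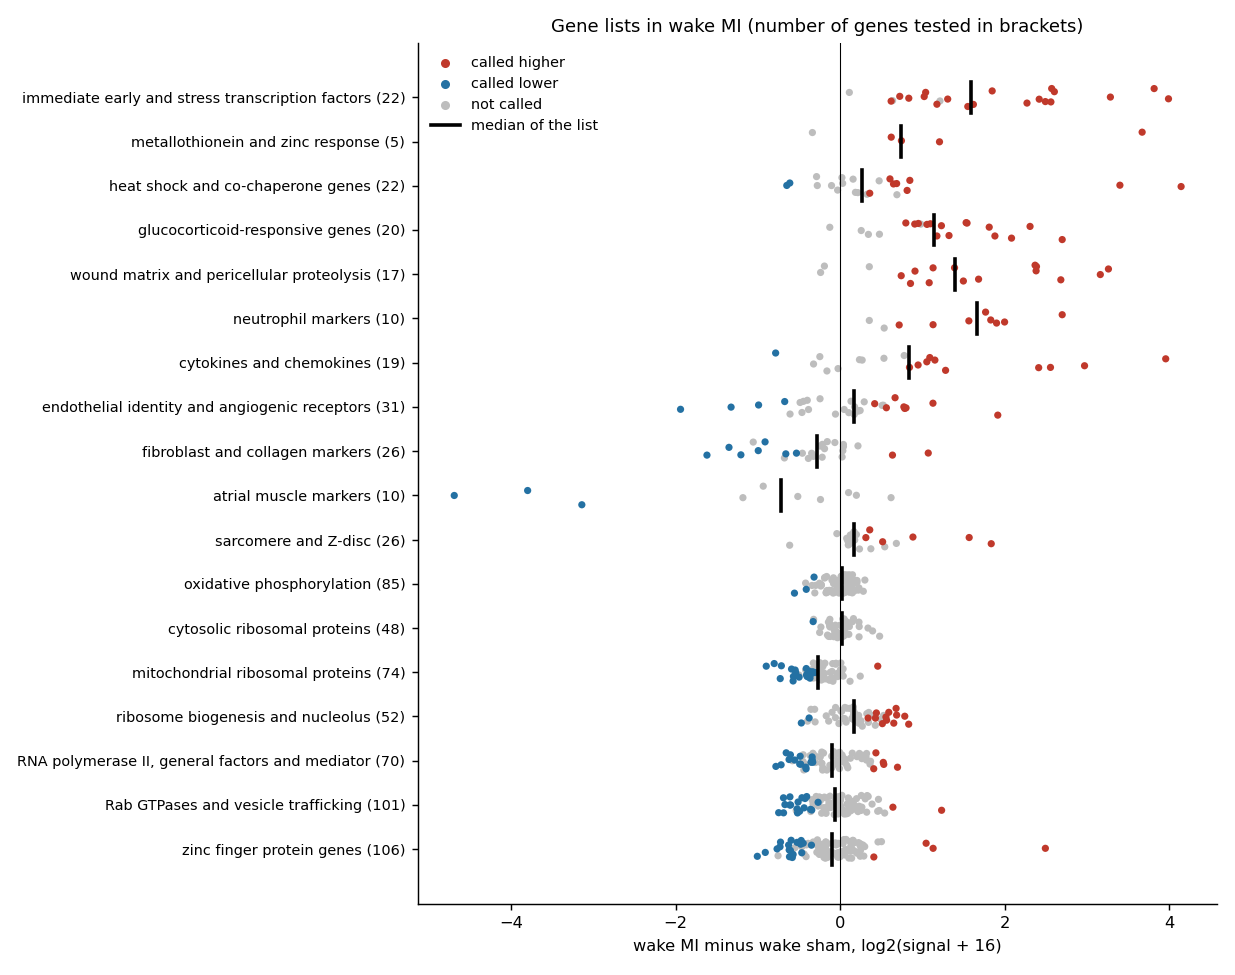
Change in wake MI (horizontal axis, difference of log2(signal + 16), MI minus sham) of every tested gene in 18 lists, 1 point per gene, red where called higher, blue where called lower and grey otherwise, with the median as a black bar. Points of the immediate early, glucocorticoid, wound and neutrophil lists lie mostly right of 0, and blue points of the mitochondrial ribosomal, polymerase, vesicle and zinc finger lists lie between 0 and -1.01.

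The 3 largest falls were muscle genes of the atria. Myl7, the atrial regulatory light chain of myosin, had 79.3, 268 and 3476 in sham and 3.07, 0.727 and 1.21 in MI. Sln, sarcolipin, which inhibits the calcium pump of the sarcoplasmic reticulum in atria, had 27.6, 120 and 1995 in sham and 0.449, 0.320 and 0.443 in MI. Myl4, the atrial essential light chain, had 152, 290 and 3243 in sham and 43.5, 44.3 and 51.9 in MI. In each the groups did not overlap, but the sham arrays themselves spanned more than an order of magnitude, with SH3 the highest. The changes were -4.69 ± 1.05 (adjusted p = 0.00834) for Myl7, -3.80 ± 1.06 (adjusted p = 0.0249) for Sln and -3.14 ± 0.80 (adjusted p = 0.0164) for Myl4. All MI values of Myl7 and Sln lay below the minimum level, so the size of these falls depends on the added constant. The call of Sln ended without SH3 (adjusted p = 0.0766) and without any 1 of the 3 wake MI arrays, and 0 of the 10 tested atrial markers were called with the beta-actin ratio. Nppa, atrial natriuretic peptide, followed the same order of sham arrays, with 1457, 1445 and 5972 in sham and 1342, 952 and 1383 in MI, and was not called (adjusted p = 0.16). The median of the atrial list was -0.73, and it was -0.27 without SH3. The share of atrial tissue in each sample is not given in the labels.

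Genes of the ventricular contractile apparatus changed little or rose. Of 26 tested sarcomere and Z-disc genes 6 were called higher and 0 lower, with a median of 0.17 (0.09 to 0.20 under the other scalings). Xirp1, an actin-binding protein of intercalated discs, had 472, 349 and 403 in sham and 1126, 1753 and 1660 in MI (3.57-fold, adjusted p = 3.2e-05). Flnc, the muscle filamin that crosslinks actin at Z-discs, had 232, 128 and 191 in sham and 413, 899 and 474 in MI (2.96-fold, adjusted p = 0.00191). Both were clear of overlap and were the 2 called with the beta-actin ratio. Lmod2, which sets thin filament length, rose 1.84-fold (adjusted p = 0.00223), and Tcap, a titin-binding Z-disc protein, rose 1.43-fold with all values between 2117 and 2301 in sham and between 3129 and 3298 in MI (adjusted p = 0.00176). Nppb, brain natriuretic peptide, a marker of wall stress, had 3420, 759 and 2118 in sham and 3655, 5902 and 4514 in MI and was not called (1.37 ± 0.65, adjusted p = 0.156), though it was without sleep sham replicate 3. Myh7, the slow myosin heavy chain, was not called either (0.37 ± 0.51, adjusted p = 0.651).

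The genes of energy metabolism were little changed in number. Of 85 oxidative phosphorylation genes 0 were called higher and 3 lower, with a median of 0.02 that ranged from -0.06 to 0.05 under the other scalings. The number lower was 0 without SH1, SH3 or MI3, and 5 without MI1. Of 31 genes of fatty acid oxidation 2 were called higher and 0 lower, with 1 higher without MI2 or SH2 or SH3. Of 22 genes of glycolysis and glucose uptake 3 were called higher and 0 lower, with a median of 0.08. Single genes of glucose handling gave larger rises. Pfkfb3, whose product activates phosphofructokinase, rose 3.10-fold (adjusted p = 0.000925). The glucose transporters Slc2a1 and Slc2a3 rose 2.72-fold and 2.58-fold (adjusted p = 0.00901 and 0.000829). Slc2a1 had 132, 205 and 133 in sham and 367, 839 and 284 in MI, with MI2 the highest and no overlap. Pfkfb3 and Slc2a3 were called with the beta-actin ratio and Slc2a1 was not (adjusted p = 0.06).

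The insulin receptor substrates moved apart. Irs2 had 18.9, 15.3 and 16.8 in sham and 108, 101 and 177 in MI (2.10 ± 0.19, 4.27-fold, adjusted p = 2.3e-05). The mean sham signal of Irs2 lay below the minimum level, so the size of this rise depends on the added constant. Irs1, the paralogue that predominates in muscle insulin signalling, had 431, 659 and 433 in sham and 272, 353 and 245 in MI (-0.76 ± 0.16, 1.70-fold lower, adjusted p = 0.00654). Neither overlapped between the groups, Irs2 stayed called with the beta-actin ratio, and Irs1 did not (adjusted p = 0.15).

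Among solute carriers, the membrane transporters of small molecules, 20 of 144 were called higher and 10 lower. These shares, 13.9% and 6.94%, compare with 7.8% and 10.6% of all genes. Slc10a6, a transporter of sulphated steroids, had 42.7, 138 and 75.6 in sham and 523, 463 and 511 in MI (5.47-fold, adjusted p = 0.000435). Slc25a25, a mitochondrial ATP-magnesium carrier, rose 2.58-fold and Slc7a6, an amino acid exchanger, 2.07-fold. Slc8b1, the mitochondrial sodium-calcium exchanger, fell 1.69-fold (adjusted p = 0.00515), from 68.7 to 85.5 in sham to 32.2 to 41.6 in MI. Rises numbered 12 without SH1, and the number lower was 6 without MI2, 6 without MI3 and 4 without SH1 or SH3. With the beta-actin ratio 5 were called higher, including Slc10a6, Slc25a25 and Slc7a6, and 0 lower.

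Growth factor and guidance genes changed as single genes in both directions. Bmp4, a bone morphogenetic protein, had 80.2, 101 and 134 in sham and 449, 246 and 487 in MI (3.31-fold, adjusted p = 0.000925), and Smad1, which carries its signal to the nucleus, rose 2.17-fold (adjusted p = 0.000435). Acvr1, a type I receptor for the same ligands, fell 1.77-fold, from 121 to 133 in sham to 60.9 to 69.2 in MI (adjusted p = 0.000263). These 3 kept their calls with the beta-actin ratio. In the whole TGF-beta and BMP list 3 of 26 were called higher and 4 lower, with 2 lower without SH1 or SH3. Plxna2, a semaphorin receptor, rose 3.04-fold from 50.6 to 58.2 in sham to 190 to 213 in MI (adjusted p = 0.000138), and Sema7a, a membrane-bound semaphorin, rose 2.34-fold (adjusted p = 0.000868). The Frizzled receptors of Wnt ligands were called in both directions, with Fzd4 1.77-fold higher (adjusted p = 0.00351) and Fzd7 1.89-fold lower (adjusted p = 0.00874). Fzd2 was also called lower (adjusted p = 0.0423). The call of Fzd4 ended with the mean of its probe sets. In the whole Wnt list 1 of 21 was called higher and 4 lower, with 1 lower without MI1 or MI2. Bcl2l1, which encodes the survival protein Bcl-xL, rose 3.22-fold (adjusted p = 0.000217) and Gadd45g, a growth arrest gene, 4.67-fold (adjusted p = 0.000104). Plxna2, Sema7a, Bcl2l1 and Gadd45g stayed called with the beta-actin ratio, and Fzd4 and Fzd7 did not.

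The falls were mostly modest. Of the 863 genes called lower, 467 (54.1%) fell between 1.25-fold and 1.5-fold and 334 (38.7%) between 1.5-fold and 2-fold. The corresponding counts among rises were 197 (31.1%) and 238 (37.6%). The median sham signal was 181 for genes called lower and 112 for genes called higher, and the order was the opposite in MI, where the medians were 110 and 222. The genes called lower were also shorter, with a median genomic length of 15.9 kb against 22.5 kb for all genes tested and 23.1 kb for genes called higher, while the 39 genes that rose at least 4-fold had a median of 5.92 kb.

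**Figure D4:**
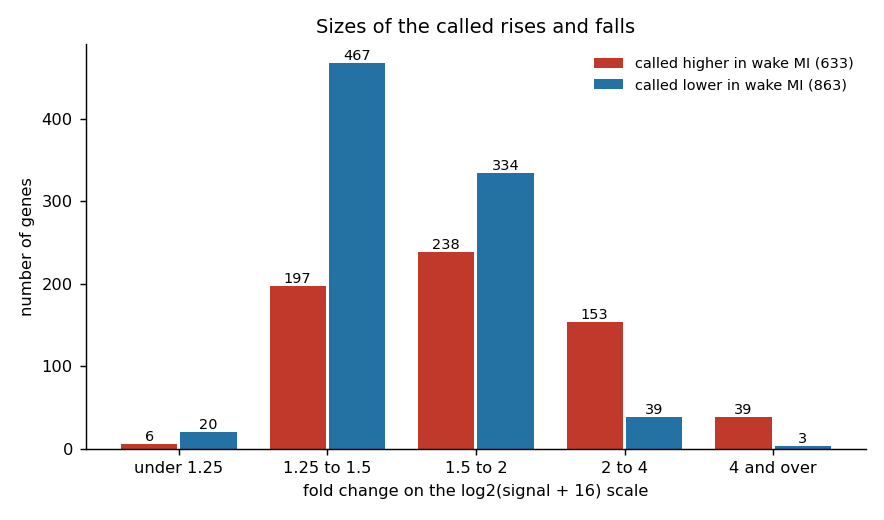
Number of genes called higher (red) and lower (blue) in wake MI by size of the fold change on the log2(signal + 16) scale. Falls outnumber rises below 2-fold (821 against 441), and rises outnumber falls at 2-fold and above (192 against 42).

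Of 369 falls under 2-fold in genes with a mean sham signal of at least 200 whose groups did not overlap, those with the smallest adjusted p values came from varied cell functions. Hikeshi, which carries Hsp70 into the nucleus, had 384, 354 and 372 in sham and 198, 204 and 139 in MI (1.99-fold lower, adjusted p = 0.000354). Snrnp27, a protein of the spliceosome, had 1424, 1382 and 1417 in sham and 753, 865 and 773 in MI (1.75-fold lower, adjusted p = 0.000217). The sham values of Snrnp27 lay within a few percent of each other, and the MI values were far below them. Chac2, which degrades glutathione, had 296, 244 and 284 in sham and 128, 155 and 159 in MI (1.78-fold lower, adjusted p = 0.000441). Nedd1, a centrosomal protein, and Tmem242, a mitochondrial membrane protein, fell 1.69-fold and 1.64-fold (adjusted p = 0.000922 and 0.00111). Tpd52l2, of the tumour protein D52 family, had 270 to 289 in sham and 184 to 189 in MI (1.46-fold lower, adjusted p = 0.00151). AW112010, named only by a clone identifier on the array, fell 1.93-fold (adjusted p = 0.000728). Of these, Hikeshi, Snrnp27, Chac2, Nedd1, Tpd52l2 and AW112010 stayed called with the beta-actin ratio and Tmem242 did not (adjusted p = 0.057).

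Mitochondrial ribosomal proteins, which build the ribosome that translates the few respiratory proteins encoded in mitochondrial DNA, were often lower in wake MI. Of 74 tested 22 (29.7%) were called lower and 1 higher, against 10.6% and 7.8% of all genes, and 66 of 74 changes were below 0. Mrpl34 had 705, 555 and 714 in sham and 365, 362 and 306 in MI (1.87-fold lower, adjusted p = 0.000803). Mrpl49 fell 1.64-fold, Mrpl32 1.49-fold and Mrpl40 1.46-fold, from 314 to 326 in sham to 189 to 232 in MI for the last (adjusted p = 0.00321). The median of the list was -0.27 (-0.26 to -0.24 under the other scalings, -0.32 to -0.18 with 1 array left out). The number called lower was 5 without SH1, 6 without SH3 and 9 without MI3. Among all 8111 genes these numbers were 441, 414 and 689. With the beta-actin ratio 1 gene of the list was called lower, namely Mrpl34, and the median was then -0.16. The call of Mrpl34 ended with the mean of its probe sets. By gene symbol, of 48 symbol stems with at least 15 tested genes, the highest shares called lower were those of Mrpl (15 of 47), Snx (5 of 17), Mrps (7 of 27) and Gtf (4 of 17). The highest shares called higher were those of Il (9 of 20), Ddx (6 of 25), Zbtb (4 of 18) and Lrrc (3 of 16).

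The cytosolic ribosome did not follow. Of 48 cytosolic ribosomal protein genes 0 were called higher and 1 lower, with a median of 0.02 that ranged from -0.06 to 0.05 under the other scalings, and the 1 call ended without SH2 or SH3. Genes of ribosome biogenesis and the nucleolus were called higher in 12 of 52 cases and lower in 2. Their median was 0.17, and over all genes 7.8% were called higher and 10.6% lower. Nolc1, a nucleolar phosphoprotein, had 48.4, 61.6 and 54.2 in sham and 111, 119 and 99.7 in MI (1.78-fold, adjusted p = 0.00385), and Gnl3, nucleostemin, rose 1.72-fold (adjusted p = 0.00363). Rises numbered 7 without MI1, 4 without MI2, 7 without SH1 and 5 without SH3, and it was 0 with the beta-actin ratio. The number lower was 0 without SH1 and 1 without SH3 or MI3. Among 52 translation factors 7 were called higher, 4 without SH3, and 3 lower. Eif5, which triggers GTP hydrolysis at the start codon, had 669, 602 and 567 in sham and 1185, 1154 and 1127 in MI (1.87-fold, adjusted p = 7.8e-05), although 1 of its 4 probe sets was called. Eif4a2, an RNA helicase of the cap complex, had 2522, 2964 and 2856 in sham and 1950, 1952 and 1783 in MI (1.46-fold lower, adjusted p = 0.00196).

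The transcription machinery leaned lower. Of 70 genes for RNA polymerase II, general factors and the mediator complex, 15 (21.4%) were called lower and 5 higher. Over all genes 10.6% were called lower and 7.8% higher. The median of the list was -0.10 against -0.06 for all genes. Med20, a head subunit of mediator, had 118, 129 and 109 in sham and 49.8, 70.9 and 67.7 in MI (1.72-fold lower, adjusted p = 0.00227, both probe sets). Gtf2e2, the small subunit of TFIIE, fell 1.58-fold (adjusted p = 0.00297), Taf12, shared by TFIID and SAGA, 1.47-fold (adjusted p = 0.00541), and Med21 1.54-fold (adjusted p = 0.00776). The number lower was 6 without MI3, 7 without SH1 and 8 without SH3, and 2 with the beta-actin ratio, Med20 and Taf12. Among all 8111 genes the number lower was 689 without MI3, 441 without SH1 and 414 without SH3. Without MI3 the share of the list was thus close to that of all genes. Rises numbered 1 without MI1 or SH3, 0 without SH1, 2 without MI2, and 3 without sleep MI replicate 1 or 2 or sleep sham replicate 1 or 2.

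Zinc finger protein genes of the Zfp series, mostly transcriptional repressors, gave 18 of 106 (17.0%) called lower and 4 higher. Over all genes 10.6% were called lower and 7.8% higher. The median of the list was -0.10 against -0.06 for all genes. Zfp346, a binder of double-stranded RNA, fell 2.01-fold, from 95.6 to 170 in sham to 43.9 to 57.0 in MI (adjusted p = 0.00766), and Zfp329 fell 1.51-fold in both of its probe sets. Zfp948 rose 2.19-fold (adjusted p = 0.00308), and Zfp36, which acts on mRNA, was among the others called higher. The number lower was 5 without MI3, 9 without SH1, 6 without SH2 and 6 without SH3, and 2 with the beta-actin ratio, Zfp329 and Zfp346. Among all 8111 genes the number lower was 689 without MI3, 441 without SH1, 661 without SH2 and 414 without SH3. Without MI3 or SH2 the share of the list was thus below that of all genes. The number higher was 2 without MI2 or SH3.

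RNA processing genes tended the other way. Of 94 splicing factors and RNA-binding proteins 12 (12.8%) were called higher and 4 lower, against 7.8% and 10.6% of all genes. Their median was 0.10. Sf3b1, the core subunit that recognises the branch site, had 440, 532 and 439 in sham and 950, 1140 and 892 in MI (2.07-fold, adjusted p = 0.000502), in 2 of 3 probe sets. Hnrnpdl, a regulator of splicing, rose 1.52-fold (adjusted p = 0.0025), and Rbm5, which promotes exon skipping, fell 1.64-fold (adjusted p = 0.0117). Both calls ended with the mean of the probe sets of each gene. Rises numbered 7 without SH1, the number lower was 2 without MI2 and 1 without SH2, and with the beta-actin ratio 3 were called higher and 1 lower. Chromatin genes were balanced, with 4 of 68 called higher and 5 lower, the latter between 1 and 3 with any 1 wake array left out. Arid5a, which binds and stabilises Il6 mRNA in immune cells, had 19.2, 38.9 and 29.6 in sham and 129, 134 and 233 in MI (3.94-fold, adjusted p = 0.000206), and Chd1, a remodeller of active genes, rose 1.84-fold (adjusted p = 0.00583).

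Genes of vesicle traffic were also called lower more often than higher. Of 101 Rab, sorting nexin, syntaxin, Vamp and Vps genes 18 (17.8%) were called lower and 2 higher, against 10.6% and 7.8% of all genes. The median of the list was -0.06, equal to that of all genes, so the list as a whole did not lean lower. Rab21, a GTPase of early endosomes and integrin recycling, had 367, 354 and 358 in sham and 208, 232 and 212 in MI (1.61-fold lower, adjusted p = 0.00116). The 3 sham values of Rab21 were nearly equal and lay clear of the MI values. Vps26c, a subunit of the retriever complex, fell 1.68-fold (adjusted p = 0.00227), Snx6 and Snx15, sorting nexins, 1.52-fold and 1.61-fold (adjusted p = 0.00249 and 0.0052), and Vamp4, a SNARE of the Golgi, 1.43-fold (adjusted p = 0.00327). Rab20, a hypoxia-responsive GTPase of phagosomes, rose 2.35-fold, from 58.9 to 76.2 in sham to 146 to 228 in MI (adjusted p = 0.00061). The number lower was 10 without MI2, 9 without SH1, 10 without SH2 and 8 without SH3, and 1 with the beta-actin ratio, Vamp4. The number higher was 5 without MI1.

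Among protein turnover genes, falls outnumbered rises, as they did over all genes. Of 56 ubiquitin-conjugating and ubiquitin-specific enzymes 6 (10.7%) were called lower and 2 higher. The number lower was 1 to 4 with 1 array left out and 0 with the beta-actin ratio. Of 46 proteasome genes 6 (13%) were called lower, against 10.6% of all genes, and 2 higher, 1 without SH3. Psmb9, a catalytic subunit of the immunoproteasome, fell 1.47-fold (adjusted p = 0.00597) and the assembly chaperone Psmg2 1.38-fold (adjusted p = 0.00783). Psme4, the nuclear proteasome activator PA200, rose 1.45-fold (adjusted p = 0.00659), and its call ended with the mean of its probe sets. Of 37 autophagy, atrogene and lysosome genes 0 were called higher and 6 (16.2%) lower, with 2 lower without MI2 or SH3 and 3 without SH1. Atg5, required to lipidate LC3, had 99.3, 98.9 and 100 in sham and 61.2, 74.4 and 58.0 in MI (1.44-fold lower, adjusted p = 0.00664). Laptm4a, a lysosomal membrane protein outside the list, fell 2.07-fold, from 2179 to 2901 in sham to 995 to 1425 in MI (adjusted p = 0.00282). With the beta-actin ratio in the model 1 proteasome gene, Psmb9, and 1 gene of the autophagy list were called lower.

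Circadian genes, which keep circadian time in heart muscle, were called higher in 5 of 18 cases and lower in 1. Over all genes 7.8% were called higher and 10.6% lower. Per1, a repressor of the clock that glucocorticoids and injury also induce, had 84.0, 122 and 76.9 in sham and 207, 174 and 202 in MI (1.93-fold, adjusted p = 0.00106). Bhlhe40 rose 2.71-fold (adjusted p = 0.00104) and Nfil3 1.92-fold (adjusted p = 0.00124), both transcriptional repressors that act on clock targets. The number higher was 3 without MI3 or SH3, and 1, Per1, with the beta-actin ratio. The single call lower ended without any 1 of the 3 wake MI arrays or SH1 or SH2.

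The MI effect in sleep hearts leaned the same way for most genes called in wake hearts. Of the 633 genes called higher in wake MI 550 (86.9%) were also above sham in sleep MI. Of the 863 called lower 784 (90.8%) were below sham. The share of all genes tested that leaned the same way in both was not taken as a background. Of the genes called higher and lower in wake, 118 and 44 were called in sleep too. Over all genes tested, 137 were called higher and 80 lower in sleep MI. The median sleep changes of the genes called higher and lower in wake were 0.33 and -0.21, against 0.74 and -0.55 in wake. The wake values are those by which the genes were called. The test of the difference between both effects called 0 genes (0%), with limma, while 848 genes (10.5%) had an unadjusted p below 0.05. The count was 36 without sleep sham replicate 3, 22 without SH2, 1 without sleep sham replicate 1, 39 with array weights and 0 to 3 in the other settings. The smallest adjusted p was 0.0516, of Timp3, an inhibitor of matrix proteases, chosen here after its values were seen, with a change of 1.32 in wake and 0.26 in sleep.

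For Mt2 the sleep sham arrays were high, at 5275, 5863 and 2069, and the sleep MI arrays at 7114, 7168 and 7834. The MI effect was 3.67 in wake and 0.88 in sleep, a difference of 2.79 with an interval from 1.82 to 3.76, and it was not called (adjusted p = 0.0975). Ptx3 and Il6 were likewise raised in 2 of the 3 sleep sham arrays, at 206 and 436 for Ptx3 and 71.0 and 97.8 for Il6, and their effects in sleep were 2.71 and 2.65. Irs1 was lower by 0.76 in wake MI and higher by 0.31 in sleep MI, with sleep sham arrays of 238, 196 and 219, all below every wake MI array. This difference of -1.07 was not called either (adjusted p = 0.133). Myl7, with a difference of -6.50 and an interval from -9.68 to -3.31, had sleep sham arrays of 26.3, 11.5 and 256 and sleep MI arrays of 550, 121 and 158 (adjusted p = 0.139).

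**Figure D5:**
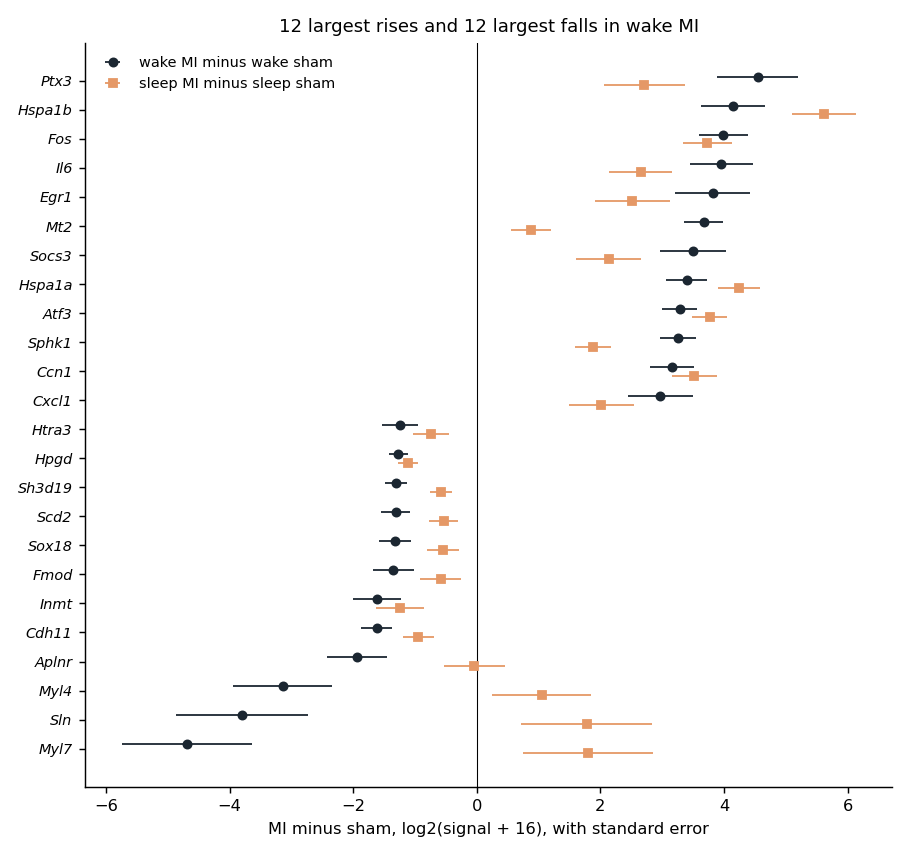
MI effect in wake hearts (dark circles) and sleep hearts (orange squares) for the 12 largest rises and 12 largest falls of the wake comparison, as differences of log2(signal + 16) with standard errors, 3 arrays per group. The 12 rises are above 0 in both, Mt2 lies at 3.67 in wake and 0.88 in sleep, and Myl7, Sln and Myl4 are below 0 in wake and above 0 in sleep.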

How the data were processed

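Biotin-labelled copies of total RNA from 12 hearts were measured on Affymetrix arrays, as the labels' protocols state. Each deposited value is the linear intensity of a probe set, made by the authors with MAS5 per the submitters' processing notes. Version, settings, detection calls, slides and scan dates were not used here, and batches were not tested. The arrays are few, which limits the precision.

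Of 22690 probe sets, 64 controls were left out, and 20380 had 1 gene symbol in the platform annotation, 691 several and 1555 none. Each of the 12393 genes with a symbol was represented by its brightest probe set, and 8111 were tested whose mean over 12 arrays reached the 40th percentile of probe sets, a signal of 17.3. Of the genes, 12369 matched a RefSeq table and 0 symbols changed. Values were taken as log2(signal + 16) with no further scaling.

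All 12 arrays were fitted with limma 3.58.1 (R 4.3.3, statmod 1.5.0), 1 mean per group, an intensity trend and two-sided moderated tests with 8 residual degrees of freedom (13.9 with the prior). p-values were adjusted by Benjamini-Hochberg over all genes. The procedure was tested on simulated data. Python 3 with pandas and matplotlib made the tables and figures.

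The comparison, the gene lists and the rule for named genes were chosen with earlier results of these data known. Named are the 12 largest rises and falls among called genes without overlap, the 10 largest in abundant genes (mean signal at least 500 in the higher and 100 in the lower group), the 12 smallest adjusted p among falls under 2-fold with a sham mean of at least 200, up to 4 called members of each list per direction, members of leading symbol stems, a fixed panel of known genes, and genes called both in wake hearts and in the difference of effects, of which there were 0. Any could be left out. Replicate numbers were not used to pair the arrays. Deviations of same-numbered wake arrays correlated at -0.002, -0.016 and 0.154, and those of differently numbered ones at -0.145 to 0.138. So few values cannot settle whether the arrays were paired. Mice were counted as biological replicates, as the series' design says. The alternatives were another constant, level filter, scaling, probe set rule, variance model, array weights, wake arrays alone, the replicate number as a block, the beta-actin 3′ to 5′ ratio as a covariate and each array left out.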

Additional observations from a re-analysis of the deposited data

Results flagged for a closer look

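Control probe sets that entered no comparison differed between the wake groups. The 3′ to 5′ ratio of beta-actin averaged 2.60 ± 0.62 (SD, n = 3) in wake MI, with wake MI replicate 3 at 3.31, against 1.79 ± 0.02 in wake sham, 2.40 ± 0.45 in sleep MI and 2.18 ± 0.28 in sleep sham. The corresponding ratio of Gapdh was 0.833 to 1.12 in wake MI and 0.759 to 0.775 in wake sham. The hybridisation controls added to each sample averaged 10.26 ± 0.12 on the log2 scale in wake MI and 9.92 ± 0.03 in wake sham. Wake sham was the lowest of the 4 groups in all 3 measures. The part of these differences in the gene results was not tested beyond the model with the beta-actin ratio.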

How the results depend on the processing

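The number of genes called (1496) lay between 838 and 1521 with 1 array left out, 424 to 669 higher and 414 to 852 lower, and was 265 (155 higher, 110 lower) once the beta-actin ratio entered the model. Testing every probe set gave 1019 higher, and the 6 wake arrays alone gave 565 lower. The split shifted toward rises under median centring (683 higher, 716 lower) and quantile normalization (683 higher, 822 lower). The difference between wake and sleep effects called 0 genes, 1 with the stricter level filter, median centring or the robust fit, 2 with quantile normalization, 39 with array weights, and 0 to 36 with 1 array left out. The Mtf1 change of -0.34 became 0.10 with the mean of its probe sets. With the replicate number as a block 1433 genes were called (611 higher, 822 lower), and 3 for the difference, although whether the numbers pair the arrays is not known.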

Other observations

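Several lists not described above held few called genes. By limma, interferon-stimulated genes gave 0 of 17 called in either direction (3 higher without MI1), tRNA synthetases 0 of 18 (1 higher without the same array), and antigen presentation genes 0 higher and 1 lower of 12. Smooth muscle and pericyte markers gave 0 higher and 1 lower of 14, the called gene being Kcnj8, a potassium channel subunit of pericytes (1.37-fold lower, adjusted p = 0.0119), with 2 called without SH2. Of 14 Notch pathway genes 1 was called higher, Notch4, a receptor of endothelium (1.71-fold, adjusted p = 0.00678), and 0 lower. Sterol and isoprenoid synthesis gave 0 higher and 1 lower of 19, Fdps, which makes farnesyl pyrophosphate (1.66-fold lower, adjusted p = 0.0133), with 2 called without SH2. Of 10 Kruppel-like factors 4 were called higher and 0 lower, with a median of 0.48, among them Klf6 (3.07-fold, adjusted p = 0.000388), Klf13 (1.63-fold, adjusted p = 0.00564) and Klf7 (1.66-fold, adjusted p = 0.00331). The volume-regulated anion channel subunits Lrrc8a and Lrrc8c rose 2.33-fold and 2.61-fold (adjusted p = 0.000306 and 0.00104).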
